A study of Mus musculus with 6 samples.

Results

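The genes described here are 10 components of the Wnt pathway around the receptor Ror2 and the Dishevelled-binding protein Nkd1, taken by symbol from the 32285 genes counted in each library. They are the ligand Wnt5a, the receptors Ror2 and Fzd5, the R-spondin receptor Lgr4 and the secreted proteins Sfrp1 and Dkk3. The others are the cytoplasmic proteins Axin2 and Nkd1 and the transcription factors Lef1 and Tcf7l2. All 10 were chosen by their UMI sums in Muller glia and in other cell types of these libraries, saline against IL-27. That difference is therefore given as a description, and calls on it from the fit over all genes are counted but support nothing. A list of 92 other Wnt pathway genes was counted beside them. The retinas came from rd10 mice (B6.CXB1-Pde6b-rd10/J), which carry a mutation of the rod phosphodiesterase gene Pde6b and lose their rods, and all groups shared this genotype. Mice received an injection into the vitreous of 20 ng IL-27 or of saline at postnatal day 18, and retinas were collected at postnatal day 20. Nuclei of frozen retinas were profiled by single-nucleus RNA sequencing in 3 saline control libraries (replicates 1, 2 and 6) and 3 IL-27 treated libraries (replicates 4, 5 and 10). No library of an uninjected retina or of a retina without the mutation was analysed here.

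Wnt ligands are lipid-modified secreted proteins that bind Frizzled receptors. In the branch through beta-catenin, binding stops the destruction of beta-catenin, which then works with Lef1 and Tcf7l2 on target genes, among them Axin2 and Nkd1, whose products restrain the pathway in turn. In the branch without beta-catenin, Wnt5a signals through Ror2 to the cytoskeleton. In the retina, Wnt signalling is known for its part in the growth of vessels and in the ciliary margin, and Muller glia, the radial glia that span the retina, have been studied as cells that respond to it.

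The libraries held 8968 to 9965 barcodes and 36678332 to 48260748 unique molecular identifiers (UMIs), and 52258 nuclei were kept. The 4673 Muller glia carried their markers, with 7 of 11 marker genes at their highest mean in this class, and Apoe, Slc1a3, Sox9 and Vim higher elsewhere. A further 637 nuclei clustered with Muller glia but carried genes of the ciliary margin, with 6 of 7 markers (Otx1, Msx1, Wfdc1, Zic1, Zic2 and Bmp4) at their highest there, and are called ciliary-like. They made up 19.8, 21.6 and 11.1% of the Muller class in saline replicates 1, 2 and 6, and 1.64, 0.486 and 12.2% in IL-27 replicates 4, 5 and 10. IL-27 replicate 10 therefore stood apart from the other IL-27 libraries, and it also had the fewest UMIs. Saline replicate 2 and IL-27 replicate 5 had over 2000 CPM of Xist in Muller glia, and the other 4 libraries had under 1 CPM, so each group held 1 female library of 3. Any pair of libraries shared 18 to 30 barcodes. Within each library the UMIs of all nuclei of a type were added up, and levels are given as CPM, the UMIs of a gene scaled to that total, a unit that is not corrected for gene length and is compared here only within a gene.

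The genes lie on 9 chromosomes in GENCODE M21 (GRCm38), with Nkd1 and Sfrp1 both on chromosome 8. Ror2 (ENSMUSG00000021464) lies at chr13:53109312-53286124 on the minus strand, Nkd1 (ENSMUSG00000031661) at chr8:88521354-88594884 on the plus strand and Axin2 (ENSMUSG00000000142) at chr11:108920349-108950783 on the plus strand. For 7 of the 10 genes RefSeq (GRCm38.p6) gave the 250 bases before a start site. The windows of Ror2 (chr13:53286125-53286374, minus strand), Nkd1 (chr8:88527383-88527632, plus strand) and Axin2 (chr11:108920099-108920348, plus strand) are shown. These 3 genes were picked because each had every IL-27 library above every saline library in the Muller glia described below. The Nkd1 window lies within the longer Nkd1 gene model of GENCODE and not before its first base. Capitals mark the GC box GGGCGG on either strand.
Ror2: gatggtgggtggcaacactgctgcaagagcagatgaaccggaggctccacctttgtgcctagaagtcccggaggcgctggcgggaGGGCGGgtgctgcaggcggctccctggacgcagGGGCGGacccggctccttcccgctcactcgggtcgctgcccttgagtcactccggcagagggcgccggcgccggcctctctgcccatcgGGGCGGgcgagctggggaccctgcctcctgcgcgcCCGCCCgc
Nkd1: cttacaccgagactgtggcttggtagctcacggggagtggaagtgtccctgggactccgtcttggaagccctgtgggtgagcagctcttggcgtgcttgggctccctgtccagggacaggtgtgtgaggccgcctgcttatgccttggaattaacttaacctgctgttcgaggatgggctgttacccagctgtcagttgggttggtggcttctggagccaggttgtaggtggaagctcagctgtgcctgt
Axin2: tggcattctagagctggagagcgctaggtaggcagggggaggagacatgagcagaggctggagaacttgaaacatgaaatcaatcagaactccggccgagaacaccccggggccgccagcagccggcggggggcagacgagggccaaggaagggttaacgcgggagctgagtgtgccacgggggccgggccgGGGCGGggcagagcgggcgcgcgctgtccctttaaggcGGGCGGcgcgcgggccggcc
The Ror2 window held 4 GC boxes, the Axin2 window 2 and the Nkd1 window 0, against at least 1 in 32.7% of 32851 promoter windows of this length. GC content was 73.2% for Ror2, 69.2% for Axin2 and 58.4% for Nkd1. The TCF and LEF motifs CTTTGAT and CTTTGTT, searched on both strands, were in 3.21% and 5.03% of all windows, and the STAT motif TTCNNNGAA was in 7.02%. None of the 3 motifs was in the windows of Ror2, Nkd1 or Axin2, which says only that these letters are not in these 250 bases. Among the 11 windows of the 7 genes, 1 held any of the 3, the second window of Tcf7l2, with CTTTGTT.

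Ror2 was higher in Muller glia of each IL-27 library than in any saline library once the ciliary-like nuclei were set aside, and Nkd1 and Axin2 showed the same order. Ror2, the receptor of Wnt5a in the branch without beta-catenin, was at 68.4, 73.4 and 62.7 CPM in saline replicates 1, 2 and 6, and at 125, 150.2 and 226 CPM in IL-27 replicates 4, 5 and 10. The group means were 68.2 ± 5.31 and 167 ± 52.7 CPM (SD, n = 3 each), with a log2FC of 1.28 (SE 0.17). The saline libraries were close together and the IL-27 libraries were not, with replicate 10 the highest. Nkd1, which binds Dishevelled and restrains the beta-catenin branch, was at 46.0, 49.5 and 48.8 CPM in saline and 75.6, 87.0 and 140.0 CPM in IL-27 libraries. Its means were 48.1 ± 1.86 and 101 ± 34.3 CPM (SD, n = 3 each), with a log2FC of 1.06 (SE 0.18). Replicate 10 was again the highest and replicate 4 the lowest of the IL-27 libraries. Axin2, a scaffold of the complex that destroys beta-catenin and a common readout of its activity, was lower in counts, with 27 to 70 UMIs per library. It was at 9.94, 7.39 and 8.70 CPM in saline and 14.1, 18.8 and 16.1 CPM in IL-27 libraries, with a log2FC of 0.91 (SE 0.21), and here replicate 5 was the highest.

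**Figure D1:**
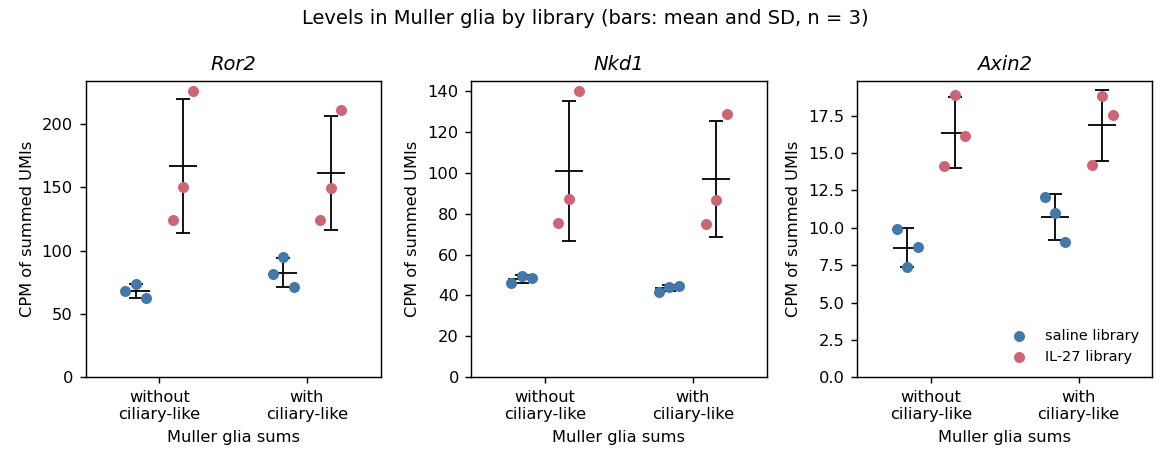
CPM of Ror2, Nkd1 and Axin2 (y axis) in Muller glia of each library, summed without and with ciliary-like nuclei (x axis); points are libraries (saline blue, IL-27 red) and bars the mean and SD (n = 3). Each IL-27 library lies above each saline library in all 6 pairs of groups, and IL-27 replicate 10 is the highest point for Ror2 and Nkd1.

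These 3 of the 10 genes had each IL-27 library above each saline library in Muller glia without ciliary-like nuclei, as did 4.88% of the 13513 genes tested, and 0 had each IL-27 library below, as did 5.69%. The edgeR quasi-likelihood test with Benjamini-Hochberg adjustment called 5 of the 13513 genes higher (0.037%) at an adjusted p under 0.05, Prss56, Atp2b4, Foxp2, Ror2 and Adamts19, so Ror2 was the single gene of the 10 among them. It called 0 genes lower (0%), with 258 lower at an unadjusted p below 0.05 and 1 called lower by DESeq2. DESeq2 called Ror2 and Nkd1, among 18 genes it called higher of all 21232 it tested. The contrast had been used to choose the genes, so these calls add no support. The edgeR call of Ror2 was lost without saline replicate 1, 2 or 6 in turn, each of which left 0 of the 10 called, while 2 (Ror2 and Nkd1) were called without IL-27 replicate 4 or 10. Without IL-27 replicate 10 the log2FC was 1.03 for Ror2 and 0.78 for Nkd1. The summed markers of 12 other classes overlapped between the groups in these Muller sums, while the 11 Muller markers together were at 7246 to 8114 CPM in saline and 6335 to 7062 CPM in IL-27 libraries, although none of the 11 separated the groups by itself. The part of this in the result was not tested.

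The other 7 genes overlapped between the groups. The ligand Wnt5a had 36 to 53 UMIs per library and was at 9.69 to 16.5 CPM over all 6, with a log2FC of -0.18 (SE 0.22). The Frizzled receptor Fzd5 was at 98.7, 129 and 128 CPM in saline and 106, 130.3 and 94.5 CPM in IL-27 libraries, with a log2FC of -0.091 (SE 0.15). Lgr4, which binds R-spondins, was among the steadiest, at 244 to 273 CPM and a log2FC of -0.037 (SE 0.10). The Dickkopf family member Dkk3 was at 1324 to 1499 CPM in saline and 1445 to 1591 CPM in IL-27 libraries, with a log2FC of 0.090 (SE 0.10). Sfrp1, a secreted protein that binds Wnt ligands, had 24 UMIs over all 6 libraries and was too low for the fit. The 2 transcription factors through which beta-catenin acts stayed close between groups. Lef1 was at 34.4, 38.1 and 32.9 CPM in saline and 33.3, 41.2 and 38.7 CPM in IL-27 libraries, with a log2FC of 0.11 (SE 0.13), and Tcf7l2 had a log2FC of -0.052 (SE 0.13). Of the 9 genes fitted, 5 had a positive and 4 a negative log2FC, with a median of 0.090, against a median of 0.0035 over all genes tested.

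Of the 92 other Wnt genes, 53 were tested in Muller glia without ciliary-like nuclei, and none passed an adjusted p of 0.05 with edgeR or with DESeq2. With edgeR 1 was higher and 4 were lower before adjustment (p under 0.05), beside 440 higher and 258 lower of all 13513 genes. Their median log2FC was -0.049, with 23 positive and 30 negative. Among the ligands the smallest unadjusted p values belonged to Wnt2b (4.32 ± 0.368 CPM in saline and 7.62 ± 2.15 in IL-27, log2FC 0.80, adjusted p 0.943) and Wnt9a (log2FC 0.61). Porcn, which lipidates Wnt ligands, was the single gene of ligand secretion tested and had a log2FC of 0.13. The receptors Fzd8 and Fzd6 had log2FC values of 0.66 and 0.22, and the ligases Znrf3 and Rnf43, which remove Frizzled from the surface, 0.15 and -0.35. Among secreted antagonists Frzb was at 85.1 ± 5.58 CPM in saline and 66.6 ± 8.14 CPM in IL-27 libraries (log2FC -0.34, adjusted p 0.943), and Sostdc1 had a log2FC of 0.21. In the cytoplasm the kinase Gsk3a and Dact3 had log2FC values of -0.35 and -0.22. In the nucleus Ctnnbip1, which binds beta-catenin and keeps it from TCF factors, was at 120 ± 4.55 and 99.7 ± 10.6 CPM (log2FC -0.25, adjusted p 0.947), and the corepressor Tle3 had a log2FC of 0.17. Of the planar polarity genes Daam2 and Prickle1 were at -0.53 and 0.20, and the target Ccnd1 at 0.12 (log2FC, adjusted p of 0.947 to 0.992 for these 3).

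With the ciliary-like nuclei added to the Muller sums, the log2FC of Ror2 was smaller, that of Nkd1 slightly larger, that of Lef1 went from above to below 0 and that of Lgr4 was further below 0. These are the sums into which the saline libraries brought 11.1 to 21.6% ciliary-like nuclei and the IL-27 libraries 0.486 to 12.2%. Ror2 was then at 81.4, 94.6 and 71.7 CPM in saline and 124, 149.8 and 211 CPM in IL-27 libraries, a log2FC of 0.98 (SE 0.18). Nkd1 was at 41.9, 44.0 and 44.9 CPM in saline and 75.0, 86.7 and 129 CPM in IL-27 libraries, a log2FC of 1.17 (SE 0.17). Axin2 was at 12.1, 10.99 and 9.03 CPM and at 14.2, 18.8 and 17.5 CPM, a log2FC of 0.67 (SE 0.19). In these sums the saline levels of Ror2 and Axin2 were above those without the ciliary-like nuclei and the saline levels of Nkd1 below them. Lef1 moved from a log2FC of 0.11 to one of -0.47 (SE 0.19), at 59.5, 72.9 and 44.6 CPM in saline and 34.1, 41.4 and 51.0 CPM in IL-27 libraries. Its groups still overlapped, because IL-27 replicate 10 lay above saline replicate 6. Sfrp1 was now at 6.13, 6.50 and 3.39 CPM in saline and 1.19, 2.69 and 4.87 CPM in IL-27 libraries, from 101 UMIs in all, with a log2FC of -0.89 (SE 0.44). Lgr4 was at 303, 306 and 292 CPM in saline and 255, 261 and 275 CPM in IL-27 libraries, without overlap, with a log2FC of -0.17 (SE 0.092). The log2FC of Wnt5a was -0.34 (SE 0.20), while Fzd5, Dkk3 and Tcf7l2 stood at 0.040, 0.16 and 0.045.

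**Figure D2:**
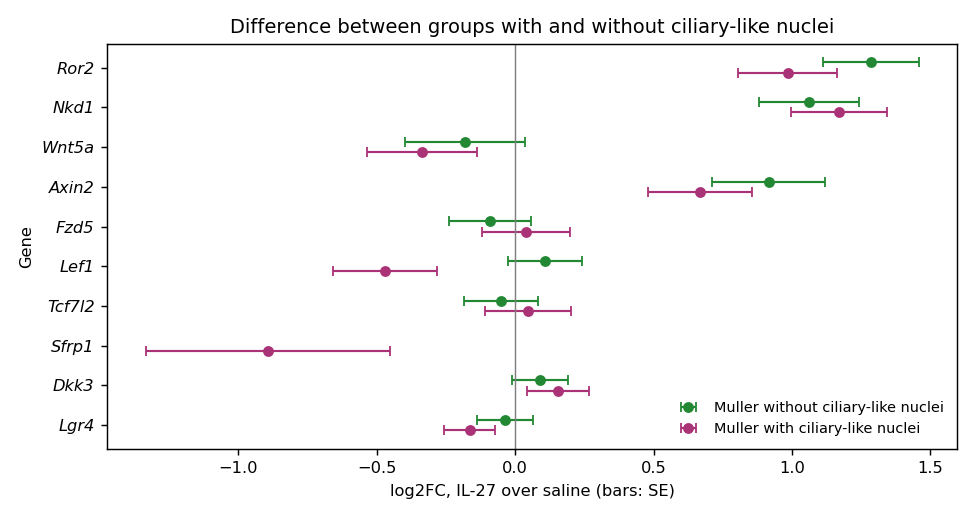
log2FC of IL-27 over saline (x axis, bars SE) for the 10 genes (y axis), from Muller sums without (green) and with (purple) ciliary-like nuclei; Sfrp1 was fitted only with them. Ror2, Nkd1 and Axin2 lie to the right of 0 in both sums, and Lef1 moves from 0.11 to -0.47.

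In the sums with ciliary-like nuclei 3 of the 10 genes had each IL-27 library above each saline library (5.43% of the 13889 genes tested did) and 1, Lgr4, had each below (8.4% did). By edgeR none of the 10 was among the 3 genes called higher (0.0216%) or the 2 called lower (0.0144%). Before adjustment (p under 0.05) edgeR placed 3 of the 10 higher and 1 lower, beside 562 higher and 727 lower of all 13889 genes. DESeq2 called Ror2 and Nkd1, among 27 genes it called higher, with 71 lower, of all 16493 it tested. Without IL-27 replicate 10 the log2FC was 0.77 for Ror2 and 0.94 for Nkd1, and edgeR called both. Of the other Wnt genes 58 were tested and 0 were called by edgeR. Before adjustment (p under 0.05) 0 were higher and 8 lower, to be read beside the counts over all 13889 genes above. Without IL-27 replicate 10 edgeR called 2, Wls and Nkd2. DESeq2 called 1 lower, Wls, the carrier that brings Wnt ligands to the cell surface. Wls was at 17.0 ± 7.30 CPM in saline and 2.59 ± 2.27 CPM in IL-27 libraries (log2FC -2.75, edgeR adjusted p 0.104). Daam2, a formin of the polarity branch, was at 23.7 ± 3.68 and 12.0 ± 2.62 CPM (log2FC -0.97, adjusted p 0.132). The other 6 of these 8 were Prickle2, Pygo1, Ptk7, Lgr5, Notum and Rnf43, with log2FC values from -0.33 to -1.28. All 8 were higher in the ciliary-like nuclei than in other Muller nuclei of each library that could be compared, as described next. The groups differ in their share of these nuclei in the sums, so the 8 were not picked independently of this and it supports nothing.

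In the ciliary-like nuclei 5 of the 10 genes were higher than in the other Muller nuclei of each library compared and 4 were lower, beside 29% and 23.5% of the 13382 genes at 5 CPM or more. Both populations were compared within each library, and the Wnt genes had been left out of the clustering that separated these nuclei. The cluster was picked by Fbln1, Frmpd4, Reln and Csmd3, which the paper reports as raised in its saline-specific Muller subpopulation. Treatment is therefore not wholly outside this comparison. A cluster was also compared with the rest, so the differences are given without a test. They were taken in the 4 libraries with at least 20 ciliary-like nuclei (saline replicates 1, 2 and 6 and IL-27 replicate 10) as differences of log2(CPM + 1). Sfrp1 was at 32.8, 32.2, 30.9 and 45.7 CPM in ciliary-like nuclei and at 1.62, 0.821, 0.621 and 0.716 CPM in other Muller nuclei, with 2 to 7 UMIs per library in the latter. Lef1 was at 207, 231, 161 and 172 CPM against 34.4, 38.1, 32.9 and 38.7 CPM, a difference of 2.38 ± 0.22 (log2, SD, n = 4). Wnt5a was at 30.7 ± 5.98 CPM against 13.6 ± 2.30 CPM, a difference of 1.11 ± 0.31. The ligand that Ror2 binds, the antagonist Sfrp1 and Lef1 were thus all higher in these nuclei. Axin2 (1.09 ± 0.54) and Lgr4 (1.08 ± 0.19) were higher too in each of the 4 libraries. Nkd1 went the other way, at 17.7, 18.6, 6.19 and 21.1 CPM against 46.0, 49.5, 48.8 and 140.0 CPM, with 36 UMIs in all in the ciliary-like nuclei. Fzd5 (-1.15 ± 0.48), Tcf7l2 (-0.93 ± 0.15) and Dkk3 (-0.65 ± 0.18) were also lower in each of the 4 libraries.

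Ror2 was the exception among the 10. In the saline libraries it was at 158, 191 and 161 CPM in ciliary-like nuclei, above the 62.7 to 73.4 CPM of other Muller nuclei. In IL-27 replicate 10 it was at 70.3 CPM in the 86 ciliary-like nuclei (20 UMIs) and at 226 CPM in the other Muller nuclei. IL-27 replicates 4 and 5 had only 13 and 4 ciliary-like nuclei, with 3 and 0 UMIs of Ror2. The mean difference was 1.30 over the saline libraries alone and 0.56 over all 4. In the ciliary-like nuclei of IL-27 replicate 10, Lgr4 was at 577 CPM, against 540.5, 574 and 483 CPM in the saline libraries. Axin2 was at 31.6 CPM in IL-27 replicate 10, from 9 UMIs, against 24.6, 27.3 and 12.4 CPM.

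**Figure D3:**
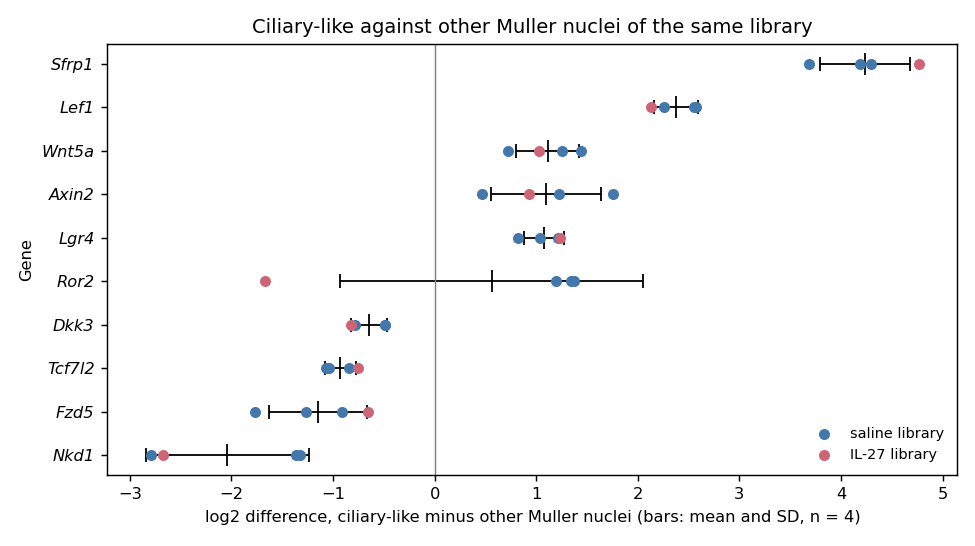
Difference of log2(CPM + 1) between ciliary-like and other Muller nuclei of the same library (x axis) for the 10 genes (y axis); points are the 4 libraries with at least 20 ciliary-like nuclei (saline blue, IL-27 red) and bars the mean and SD (n = 4). For Ror2 the IL-27 library lies left of 0 and the 3 saline libraries right of it, while the other genes keep 1 side of 0.

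Of 60 other Wnt genes at 5 CPM or more 24 were higher in ciliary-like nuclei in each library (40%) and 14 lower (23.3%). Those above a log2 difference of 4 were Wls (99.0 ± 33.9 CPM against 0.931 ± 0.632 CPM), the Wnt deacylase Notum (67.4 ± 7.22 against 1.23 ± 0.716 CPM), Nkd2, the paralog of Nkd1 (64.7 ± 20.9 against 1.40 ± 0.529 CPM), and the secreted inhibitor Wif1 (24.6, 17.4, 12.4 and 45.7 CPM against 0, 0.547, 0 and 0 CPM). Nkd1 and Nkd2 thus stood on opposite sides. The furthest on the lower side was the antagonist Frzb, at 3.73 ± 1.70 against 78.2 ± 14.5 CPM. These genes were picked for the size of their difference after the values were seen.

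Muller glia without the ciliary-like nuclei split into 3 sub-clusters, again without the Wnt genes. The first (1485 nuclei) was led by genes such as Tbx5, Efnb2 and Cyp26b1, the second (1699 nuclei) by Adamts17, Syt10 and Hes5, and the third (1489 nuclei) by Cxcl10, Ccl2 and Gbp2. Ror2 differed in level among them, at 106 ± 17.3, 37.6 ± 2.76 and 78.8 ± 11.5 CPM in the saline libraries (SD, n = 3). In each of the 3 it was higher in every IL-27 library, at 214 ± 27.9, 112 ± 59.4 and 162 ± 64.3 CPM. In the Adamts17 sub-cluster the IL-27 libraries were at 76.2, 79.1 and 180.4 CPM, against 38.6, 39.7 and 34.4 CPM in saline. Nkd1 was more even, at 55.7 ± 8.27, 45.2 ± 5.78 and 42.9 ± 2.10 CPM in saline and at 131 ± 46.2, 93.7 ± 32.0 and 86.8 ± 35.9 CPM in IL-27 libraries, with no overlap in any of the 3. Axin2 was without overlap in the Tbx5 sub-cluster alone, at 14.5, 9.33 and 14.4 CPM in saline and 24.9, 21.9 and 20.9 CPM in IL-27 libraries. Wnt5a went the other way without overlap in the Adamts17 sub-cluster, at 14.9, 16.4 and 15.5 CPM in saline and 10.7, 11.6 and 14.4 CPM in IL-27 libraries. The share of all genes without overlap was not computed within the sub-clusters, so nothing is read from these orders. Lef1 was higher in the Tbx5 sub-cluster (56.9 ± 3.51 CPM, SD, n = 6) than in the Adamts17 (24.1 ± 5.88 CPM) and Cxcl10 (32.2 ± 3.84 CPM) sub-clusters, with no overlap of libraries between the first and the others.

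The sub-cluster with the least Ror2 took 43.3, 32.3 and 54.3% of the Muller nuclei in saline and 41.9, 25.5 and 16.4% in IL-27 libraries. With the 3 sub-clusters of each library weighted equally, a summary added after the values were seen, Ror2 was at 74.9, 72.6 and 75.1 CPM in saline and 123, 146 and 218 CPM in IL-27 libraries. The log2 ratio of the means was then 1.13, against 1.29 without the weighting, and that of Nkd1 was 1.11 against 1.07. Each IL-27 library was still above each saline library for both genes, and the spread of Ror2 over the saline libraries was 1.37 CPM (SD).

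**Figure D4:**
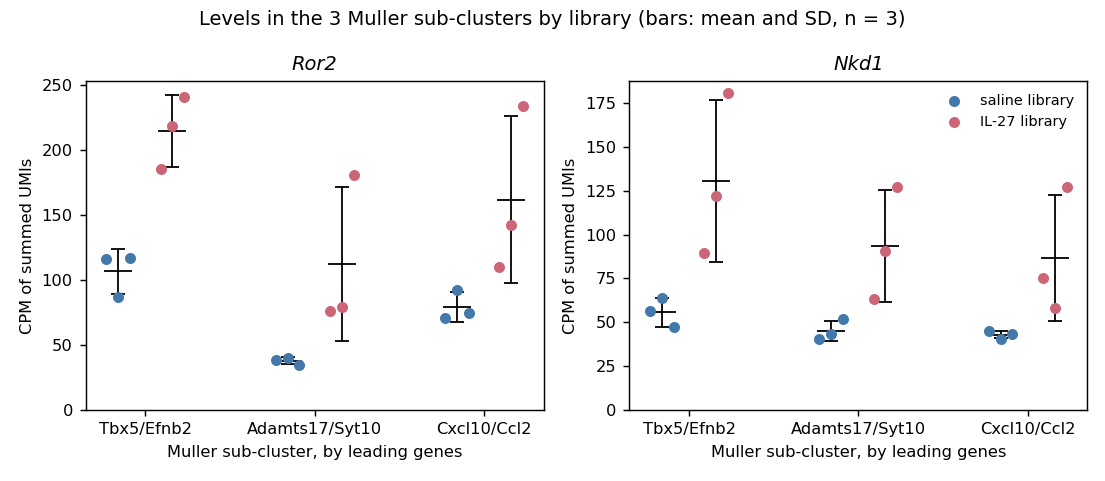
CPM of Ror2 and Nkd1 (y axis) in the 3 Muller sub-clusters, named by leading genes (x axis); points are libraries (saline blue, IL-27 red) and bars the mean and SD (n = 3). In each sub-cluster the IL-27 libraries lie above the saline libraries, and saline Ror2 is lowest in the Adamts17/Syt10 sub-cluster at 37.6 ± 2.76 CPM.

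A larger share of Muller nuclei held a UMI of Ror2 or Nkd1 in each IL-27 library than in any saline library. At least 1 UMI was found in 22.2, 23.7 and 19.8% of Muller nuclei in saline replicates 1, 2 and 6, and in 32.9, 37.1 and 49.1% in IL-27 replicates 4, 5 and 10. The 95% exact Clopper-Pearson interval was 19.5 to 25.2% for the first of these and 45.0 to 53.2% for the last, and such intervals cover counting error only. For Nkd1 the shares were 19.1, 20.1 and 17.8% in saline and 25.2, 29.1 and 38.4% in IL-27 libraries. The median depth of these nuclei was 4212 to 4787 UMIs. With each nucleus thinned to 1000 UMIs the shares of Ror2 were 4.07, 5.83 and 6.17% in saline and 9.19, 13.2 and 17.7% in IL-27 libraries, and those of Nkd1 4.19, 5.29 and 5.21% and 7.99, 8.30 and 13.1%. The groups stayed apart for both genes. In rods, with a median depth of 1190 to 1294 UMIs, 0.140 to 0.461% of nuclei held Ror2 and 0.161 to 0.637% held Nkd1. The thinning left out rod nuclei with under 1000 UMIs, 479 to 887 per library. Among the deeper rod nuclei that remained, no library was above 0.375% for Ror2 after thinning.

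By the mean over all 6 libraries, each of the 10 genes was highest in Muller glia, astrocytes or endothelial cells among the 11 cell types. The ciliary-like nuclei are not among these types. Ror2 was highest in Muller glia (118 ± 63.6 CPM, SD, n = 6 libraries), followed by pericytes (20.4 ± 29.5 CPM) and amacrine cells (12.7 ± 0.562 CPM). The pericyte libraries ran from 0 to 75.7 CPM and overlapped both neighbours in that order, while the amacrine libraries were all below those of Muller glia. No UMI of Ror2 was found in endothelial cells, where 0 of 577254 UMIs allows a level of up to 5.20 CPM (3 counts, counting error only). Nkd1 was highest in Muller glia (74.5 ± 36.2 CPM) and next in endothelial cells (48.3 ± 9.08 CPM, from 27 UMIs), whose libraries overlapped. This order came from the IL-27 libraries, since in saline alone Nkd1 was at 48.1 ± 1.86 CPM in Muller glia and 49.2 ± 9.27 CPM in endothelial cells (SD, n = 3). All other types were lower, with ganglion cells the next at 7.15 ± 1.42 CPM, without overlap with endothelial cells. Dkk3 was at 1465 ± 87.7 CPM in Muller glia, above every library of astrocytes (595 ± 80.6 CPM) and amacrine cells (214 ± 19.3 CPM).

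In astrocytes, which lie at the inner surface of the retina, Tcf7l2 reached 713 ± 57.0 CPM and Lgr4 386 ± 85.3 CPM, both above every Muller library (498 ± 57.9 and 257 ± 10.9 CPM). Fzd5 did not differ beyond the spread between the 2 glial types, at 117 ± 25.99 CPM in astrocytes and 114 ± 16.5 CPM in Muller glia. In the rest of the 11 types it was 21.7 ± 2.58 CPM or less. Lef1 was at 1550 ± 384 CPM in endothelial cells and at 36.4 ± 3.35 CPM in Muller glia, and no UMI of it was found in astrocytes (a limit of 2.68 CPM). In endothelial cells Wnt signalling is known to hold the blood-retina barrier. These cells also had the highest means of Axin2 (33.2 ± 13.4 CPM, from 19 UMIs) and Wnt5a (14.2 ± 19.1 CPM, from 8 UMIs) among the 11 types. Both overlapped their neighbours, and Wnt5a ran from 0 to 45.8 CPM there. Axin2 was found in every type, with its lowest mean at 3.91 ± 3.08 CPM in microglia. Sfrp1 was low in all 11 types, with its highest mean among them at 7.49 ± 7.85 CPM in astrocytes from 9 UMIs. It was not found in endothelial cells or pericytes, where the limits are 5.20 and 11.2 CPM. The ciliary-like nuclei, outside the 11 types, were at 35.4 ± 6.90 CPM of Sfrp1 in the 4 libraries compared above.

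**Figure D5:**
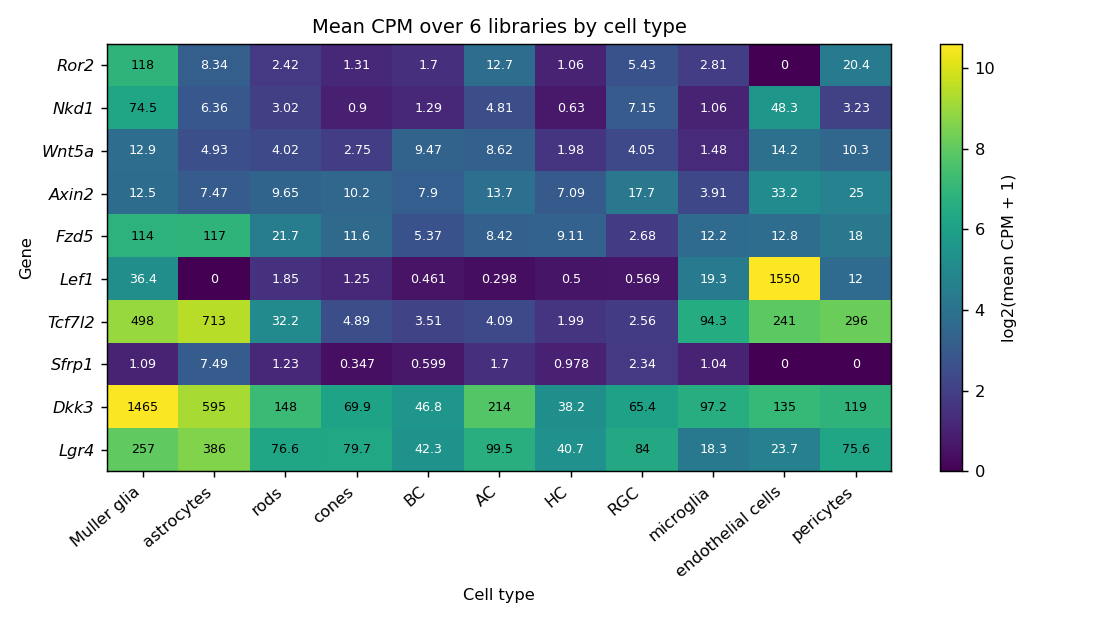
Mean CPM over the 6 libraries (numbers; colour is log2 of the mean CPM + 1) for the 10 genes (y axis) in 11 cell types (x axis). By these means Ror2, Nkd1 and Dkk3 are highest in Muller glia and Tcf7l2, Lgr4, Fzd5 and Sfrp1 in astrocytes. Lef1, Axin2 and Wnt5a are highest in endothelial cells. The libraries of the first and second type overlap for Nkd1, Fzd5, Sfrp1, Axin2, Wnt5a and, in pericytes, Ror2. In saline alone the means of Nkd1 are 48.1 CPM in Muller glia and 49.2 CPM in endothelial cells. Ciliary-like nuclei are not among the 11 types.

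In droplet data, free RNA gives UMIs in nuclei that do not express a gene. The 11 Muller markers were in rods at a median of 24.1% of their Muller level (3.14 to 126%) and in bipolar cells at 6.88% (1.15 to 32.6%). Ror2 in rods, at 2.42 ± 1.08 CPM, was 2.05% of its Muller level, and in bipolar cells, at 1.70 ± 0.566 CPM, 1.45%. Levels of Ror2 or Nkd1 of this size in neurons are not read as expression. In amacrine cells Ror2 was at 10.8% of its Muller level, within the 0.791 to 25.7% of the markers there (median 5.56%). The upper end of that range was Vim, a marker that was higher in other types than in Muller glia. Ror2 was higher in amacrine cells than in rods, while the marker median was lower. The IL-27 over saline ratio of mean CPM of Ror2 was 1.03 in amacrine cells and 2.45 in Muller glia. Whether the amacrine UMIs of Ror2 came from free RNA or from expression was not tested.

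Outside Muller glia none of the 10 genes was called between IL-27 and saline in any of the 10 other cell types. There 50 fits of the 10 genes were possible, and edgeR called 0 of them, with 1 higher and 2 lower before adjustment (p under 0.05), and DESeq2 called 0. Over all genes of these types edgeR called 2 of 92010 fits (0.00217%), with 1520 higher and 1591 lower before adjustment (p under 0.05). DESeq2 called 3 higher and 3 lower of 207180. In 2 of the 50 fits each IL-27 library was above each saline library (3.86% of all fits were) and in 3 each was below (4.85% were). Tcf7l2 in bipolar cells was at 2.62, 3.68 and 8.45 CPM in saline and 2.54, 1.79 and 1.95 CPM in IL-27 libraries, with 65 of its 146 UMIs from saline replicate 6. At 0.704% of its Muller level, below each of the 11 Muller markers there, it is not read as expression. Dkk3 was below saline in each IL-27 library in rods (149 to 157 CPM in saline, 136 to 148 in IL-27) and in ganglion cells (66.1 to 71.5 and 59.3 to 65.4 CPM). These were 10.1 and 4.46% of its Muller level. The Muller markers had a median of 24.1% in rods and of 3.12% in ganglion cells (0.496 to 14.6%), with Vim at the upper end in both types. Whether the Dkk3 UMIs there came from free RNA or from expression was not tested. Lef1 in microglia had a log2FC of 1.78 (SE 0.82) from 82 UMIs with overlapping groups, and 58 of the 82 came from IL-27 replicate 5. Lef1 in endothelial cells, its highest type, ranged from 1039 to 2152 CPM and overlapped between groups. Ror2 in bipolar cells was at 1.79, 0.80 and 1.30 CPM in saline and 1.86, 2.35 and 2.12 CPM in IL-27 libraries, levels that are not read as expression. Of the 92 other Wnt genes 338 fits were made in these types and 0 were called by edgeR, with 4 higher and 4 lower before adjustment (p under 0.05), or by DESeq2. These were Fzd6 in amacrine cells (log2FC 0.58), Prickle1 (-0.999) and Ror1 (-0.82) in endothelial cells, Pygo1 in rods (-0.82), Wnt9a (0.74) and Lgr5 (0.41) in cones, and Dact3 (-0.29) and Wls (0.32) in bipolar cells.

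The genes most like Ror2 across the 11 cell types, by Pearson's r of log2(mean CPM + 1) among 17275 genes at 5 CPM or more in a type, were Gm29683 (0.952), the fibrillar collagen Col5a1 (0.943), 1110002E22Rik (0.940), Aebp1 (0.929) and Gm14582 (0.919). All 5 were highest in Muller glia. Those most like Nkd1 were Mpzl1 (0.927), the glycogen branching enzyme Gbe1 (0.927), the mitochondrial carbonic anhydrase Car5b (0.922), the protease Adamts1 (0.916) and the phosphatase Ptpn12 (0.892). Of these, Mpzl1 and Ptpn12 were highest in endothelial cells, the second type of Nkd1. Ror2 and Nkd1 had an r of 0.433 with each other. The gene of the 10 nearest to Ror2 was Dkk3 (0.746), and the one nearest to Nkd1 was Wnt5a (0.713). These values describe 11 types that share the same 6 libraries and carry no p.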

How the data were processed

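The authors counted UMIs with Cell Ranger and deposited them as raw whole-number counts of each barcode it called. The version is 9.0.1 in the submitters' processing notes and 8.0.1 in the matrix headers, and the genome build is not given in the sources used here. Per the labels Seurat 5.2.1 followed, whose output was not used here.

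The 10 genes, the 92 other Wnt genes and the marker lists were chosen with earlier results of these data known. The barcodes kept had over 500 UMIs, 200 genes or more and a mitochondrial share under 5%, and doublets were removed per library with Scrublet in scanpy 1.11.5 at an expected rate of 8%. Nuclei were clustered without the Wnt genes (2000 variable genes, 25 components, 20 neighbours, Louvain in igraph 0.11.9 at a resolution of 0.25) and named from marker lists, with a score limit of 0.5 set after the scores were seen. Muller nuclei were clustered again, also without 4 genes called between treatments and without Fbln1, Frmpd4, Reln and Csmd3, whose mean then picked the ciliary-like cluster, and 137 Muller nuclei with rod markers and 1084 unnamed nuclei were set aside. Counts were summed per library and type, without nuclei whose log2 count was off the median of their type by over 2 median absolute deviations. Sums were fitted with edgeR 4.0.16 (filterByExpr at 10 counts, TMM, quasi-likelihood test) in R 4.3.3 with Benjamini-Hochberg adjustment over all genes of a type at 0.05. The edgeR fit of the Muller sums was run on simulated counts with a common spread for all genes. The data need not share that spread, so this checks the running of the fit and not the calls here. DESeq2 1.42.0 was an alternative.

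The labels do not say that each library of a group came from a separate animal, and although each group held 1 female library, p-values measure only the spread between these samples, which may in part be technical. The rule for naming genes covered the 10, any other Wnt gene called, and the 5 genes most like Ror2 and Nkd1. It also covered the 2 other Wnt genes of each role with the smallest unadjusted p in Muller glia without ciliary-like nuclei. Further Wnt genes were named outside this rule, for an unadjusted edgeR p under 0.05 in other sums or for the size of their ciliary-like difference. Gene positions came from GENCODE M21, which held 32158 of the 32285 gene identifiers. Tables and plots were made with pandas 2.3.3, scipy 1.17.1 and matplotlib 3.10.9 in Python 3.11.15.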

Additional observations from a re-analysis of the deposited data

Results flagged for a closer look

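Some of the 10 genes had each IL-27 library on one side of the saline libraries in one population and on the other side in another, and these differences between populations were not tested. The IL-27 over saline ratio of mean CPM of Ror2 was 2.45 in Muller glia, 1.96 in Muller glia with ciliary-like nuclei and 1.63 in bipolar cells, but 0.276 in ciliary-like nuclei and 0.539 in cones. In the ciliary-like nuclei the IL-27 values rested on 3, 0 and 20 UMIs, against 116, 154 and 52 in saline, and in cones all 6 libraries together held 11 UMIs. The ratio of Lef1 was 10.5 in cones, from 11 UMIs, and 0.636 in amacrine cells, from 22 UMIs. The ratio of Tcf7l2 was 1.12 in astrocytes and 0.426 in bipolar cells, where it was at 0.704% of its Muller level, is not read as expression, and had 65 of its 146 UMIs in saline replicate 6. The ratio of Sfrp1 was 8.53 in astrocytes, from 9 UMIs, and 0.679 in bipolar cells, from 24 UMIs.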

How the results depend on the processing

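Among the values computed under other settings 374 moved by less than their limit and 16 did not. Ror2 in Muller glia without ciliary-like nuclei had a log2FC of 1.13 to 1.29 under 9 settings (DESeq2, edgeR with the size factors of DESeq2 or with library totals, no doublet removal, no filter on low counts, no limit on nuclei by depth, a Muller resolution of 0.5 and, added after the data were seen, sex as a covariate and sub-clusters weighted equally), and Nkd1 one of 1.04 to 1.11. With each library left out in turn the ranges were 1.03 to 1.45 and 0.78 to 1.22, and with ciliary-like nuclei 0.77 to 1.14 and 0.94 to 1.31. Of the 10 genes 1 was called without ciliary-like nuclei, 2 with DESeq2, 0 with library totals, 3 with no filter on low counts and 0 to 2 with each library left out. With ciliary-like nuclei 0 were called, 2 with DESeq2, 2 with no filter and 0 to 2 with each library left out. Of the other Wnt genes 0 were called in these sums, 1 with DESeq2 (Wls), 2 with no filter (Wls and Daam2) and 0 to 2 with each library left out. The cause of these moves was not tested. In Muller glia without ciliary-like nuclei and in the 10 other types no setting called another Wnt gene. Thinning each nucleus to 1000 UMIs took the mean share of Muller nuclei with a UMI from 30.8 to 9.36% for Ror2 and from 24.9 to 7.34% for Nkd1. No paired analysis was possible because the groups share no replicate number. Depth limits Sfrp1, with 24 UMIs in Muller glia, and the ciliary-like nuclei of IL-27 replicates 4 and 5, with 13 and 4 nuclei.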
